A study of Mus musculus with 96 samples.

Results

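Glomeruli and DTL1, the descending thin limb of short loops of Henle, were compared here as microdissected parts of the kidney of male C57BL/6 mice aged 6 to 8 weeks. The samples were taken by segment label: 6 glomerulus samples from 3 mice (numbers 1, 2 and 3, with 2 pieces each) and 4 DTL1 samples from 3 mice (1 piece of mouse 1, 2 pieces of mouse 3 and 1 piece of mouse 5). These are 10 of 96 samples in the series. The abundance table holds 93 columns of microdissected samples, of which 92 match a sample title and 1, of the proximal segment PTS2, matches only its segment and entered the shared fit as a PTS2 mouse of its own. The labels name no transgene and no treatment: the mice drank and ate freely, on ordinary chow, before dissection. Dissected pieces were named by segment, and the labels do not say how many tubules or glomeruli a piece held. The values are TPM (transcript abundance), a measure scaled by transcript length and by the sample's total, made from polyadenylated RNA of very small inputs. Pieces of a mouse were averaged, so n = 3 mice in each group. Values of a gene are given below in the order of mice 1, 2 and 3 for the glomerulus and of mice 1, 3 and 5 for DTL1.

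The glomerulus is a tuft of fenestrated capillaries held together by mesangial cells and covered on its outer side by podocytes, whose interlocking foot processes are bridged by the slit diaphragm. Plasma is filtered through the endothelium, a shared basement membrane and that diaphragm into the space lined by the parietal epithelium. The descending thin limb of short loops is a simple epithelium in the outer medulla that runs beside bundles of vasa recta and carries the urea transporter UT-A2, through which urea passes from the vessels back into the tubule. The series maps messenger RNAs over the glomerulus and the tubule segments, and the comparison asks which transcripts differ between this capillary tuft and this thin tubule.

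The labels held against their defining transcripts. Nephrin (Nphs1), the main strand protein of the slit diaphragm, was at 156, 180 and 243 TPM in the glomerulus mice and did not exceed 2.36 TPM in a DTL1 mouse. UT-A2 is encoded by Slc14a2, which was at 9809, 8804 and 4052 TPM in the DTL1 mice and between 0 and 0.25 TPM in the glomerulus mice. Both groups also carried many transcripts at low levels. Between 23597 and 29280 genes reached 1 TPM in a glomerulus mouse and between 26044 and 29454 in a DTL1 mouse, against 11474 to 24647 in the 47 mice of the other 13 groups. Odorant and vomeronasal receptor genes, which the kidney is largely not known to use, reached 1 TPM for 316 to 730 of 1459 genes in a glomerulus mouse and for 637 to 747 in a DTL1 mouse, against 0 to 588 in the other groups. Genes at a mean of 10 TPM or more in either group are therefore the ones weighed below. The glomerulus mice resembled each other closely, with Pearson's r of 0.943 to 0.960 across the 12671 genes at that level, which are not independent replicates. DTL1 mice 1 and 3 reached 0.889, while DTL1 mouse 5 stood apart from both at 0.762 and 0.788. Across the 9 pairs of a glomerulus with a DTL1 mouse r was 0.505 to 0.680.

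A gene was counted as higher in a group where limma gave a Benjamini-Hochberg adjusted p under 0.05 and the log2(TPM + 1) values differed by at least 1. Log2 differences are glomerulus minus DTL1, so a negative value is higher in DTL1. Of 33793 genes tested, 6190 (18.3%) met this rule, 2365 (7.00%) higher in the glomerulus and 3825 (11.3%) higher in DTL1. Among the 12671 genes at 10 TPM or more, 3569 (28.2%) did, 1659 (13.1%) higher in the glomerulus and 1910 (15.1%) higher in DTL1. The shares of all genes tested, 7.00% and 11.3%, are the background of list counts over all members tested. Those at 10 TPM or more, 13.1% and 15.1%, are the background of the list counts at that level below. A low gene reaches 10 TPM only through the group where it is high, so such a count describes the members that passed and supports nothing by itself. The glomerulus held 38.2% of the called genes among all tested, and 54.3% when the mice were put on one distribution by quantile normalization. Among genes at 10 TPM or more these shares were 46.5% and 53.1%. The median log2 difference was -0.17 over all genes and -0.05 over those at 10 TPM or more. Without DTL1 mouse 5 the counts were 5167 of all genes and 3110 at 10 TPM or more.

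**Figure D1:**
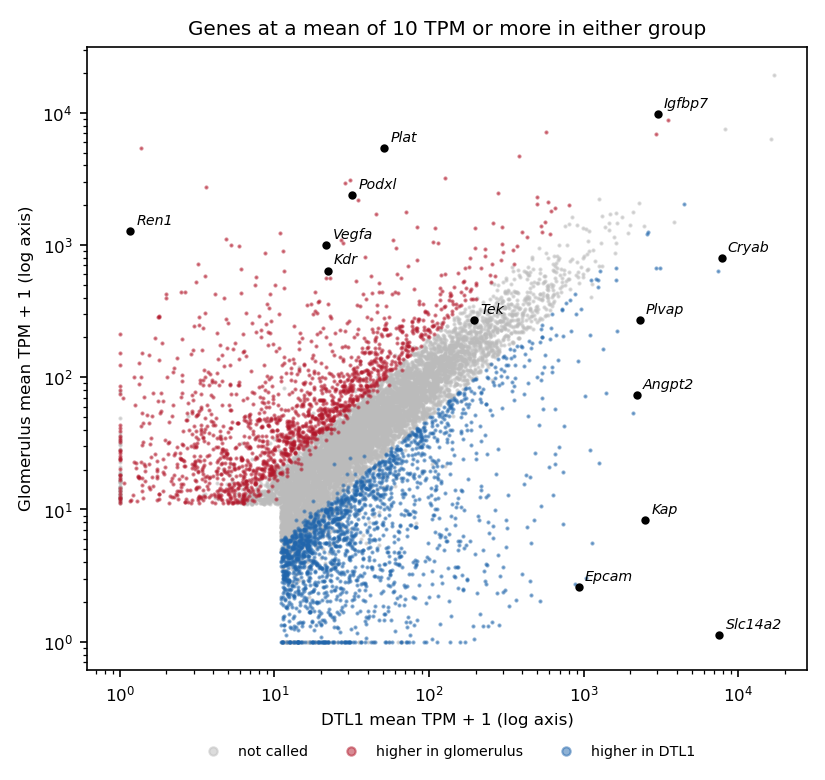
Mean TPM + 1 of 3 glomerulus mice (vertical, log axis) against that of 3 DTL1 mice (horizontal, log axis) for genes at a mean of 10 TPM or more in either group, coloured by call. Ren1 lies at the upper left, Slc14a2 at the lower right, and Plvap and Angpt2 lie on the DTL1 side while Kdr and Plat lie on the glomerulus side.

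The segment with the highest mean was found for each called gene, as a description, since being called helped to set it. Of the 1659 higher in the glomerulus, 1297 (78.2%) had their highest mean of all 15 groups there, against 24.3% of all genes at 10 TPM or more. Of the 1910 higher in DTL1, 795 (41.6%) peaked in DTL1, against 21.8% of all such genes. A proximal segment held the peak of 352 (18.4%), against 9.5% of all such genes. Another thin limb held that of 364 (19.1%, against 20.3%) and the collecting duct that of 246 (12.9%, against 14.9%). These last counts are no more than the background. Of 501 genes at 200 TPM or more in both, 435 were not called, and the 10 that differed least included the endosomal sorting subunits Vps29 and Vps25, the chaperonin subunit Cct3, the helicase Eif4a3 and the respiratory subunit Uqcrc1. Uqcrc1 was at 344, 336 and 360 TPM in the glomerulus mice and 324, 345 and 383 TPM in the DTL1 mice. The annexin Anxa3 belonged to the same 10, at 461, 436 and 431 TPM in the glomerulus mice and 463, 430 and 446 TPM in the DTL1 mice, and was at 83 ± 26.3 TPM (SD, n = 3) in the outer medullary long descending limb (DTL2). Its values overlapped between the groups.

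Among the 15 genes with the largest called differences toward the glomerulus were Ren1, Clic3, Rab3b, Shisa3, Ptpro, Aplp1, Sema3g, Mmp23, Sfrp2, Clic5, Rhpn1, Hs3st6 and Gja5. Clic3, of the intracellular chloride channel family, was at 2633, 3056 and 2599 TPM in the glomerulus mice and 3.47, 2.37 and 2 TPM in the DTL1 mice. The vesicle transport GTPase Rab3b was at 1166, 940 and 1196 TPM in the glomerulus mice and 2.06, 3.88 and 5.58 TPM in the DTL1 mice, and the metalloproteinase Mmp23 at 558, 592 and 608 TPM in the glomerulus mice and 4.89, 2.81 and 0 TPM in the DTL1 mice. None of the 15 exceeded 7.72 TPM in a DTL1 mouse. Toward DTL1 the 15 were Slc14a2, Kap, Epcam, Cldn8, Corin, Gdf15, Aadat, Plet1, Apela, Spint1, Serinc2, Akr1c18, Wfdc2, Acsm3 and Cdkl1. Apela, the peptide ligand of the apelin receptor, was at 4.75, 4.3 and 4.6 TPM in the glomerulus mice and 1089, 1245 and 1070 TPM in the DTL1 mice. The stress cytokine Gdf15 was at 1.4, 0.55 and 1.15 TPM in the glomerulus mice and 550, 446 and 567 TPM in the DTL1 mice, and Acsm3, an acyl-CoA synthetase, at 1.9, 1.5 and 2.2 TPM in the glomerulus mice and 545, 281 and 516 TPM in the DTL1 mice. By the rule that chose them, no mouse of 1 group lay within the range of the other.

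Podocyte transcripts lay on the glomerulus side. Of the slit diaphragm list, 9 of its 13 members at 10 TPM or more were higher in the glomerulus and none (0) in DTL1, with a median log2 difference of 2.62 against -0.05 over all such genes. Nphs1 stood at 1.24, 2.36 and 0.98 TPM in the DTL1 mice, a difference of 6.28 ± 0.25 (SE, adjusted p = 6.33e-25), and the groups did not overlap. The scaffold Magi2 reached 585, 678 and 713 TPM against 4.01, 7.77 and 3.49 TPM, and the cation channel Trpc6, mutated in inherited glomerular disease, 15.4, 13.2 and 14.9 TPM against 1.79, 1.27 and 1.63 TPM. The adaptor Cd2ap, also found in other epithelia, was at 44, 45.1 and 51.5 TPM in the glomerulus mice and 22.5, 27.3 and 38.4 TPM in the DTL1 mice, a difference of 0.68 that is under the size asked for, and the scaffold Iqgap1 at 145, 162 and 158 TPM in the glomerulus mice and 194, 157 and 108 TPM in the DTL1 mice, with overlapping mice.

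**Figure D2:**
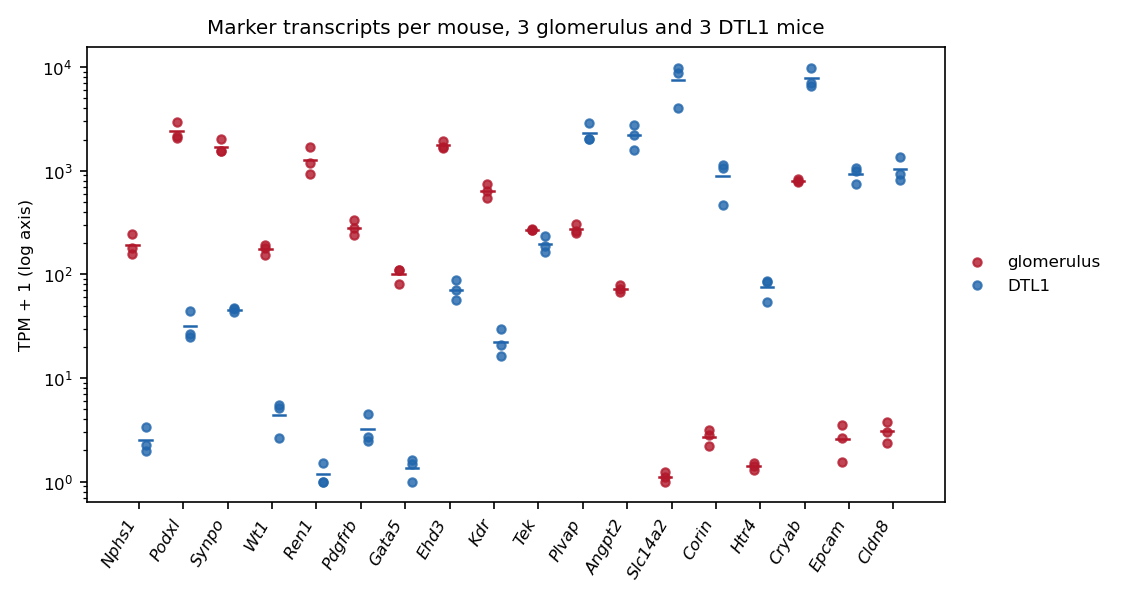
TPM + 1 (log axis) of 18 marker transcripts in each of 3 glomerulus and 3 DTL1 mice, with points for mice and short lines for the group mean. The angiopoietin receptor Tek lies close together in both groups, while the podocyte marker Nphs1 is higher in each glomerulus mouse and the thin limb marker Slc14a2 lies over 3 decades higher in DTL1.

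The podocyte's actin cytoskeleton and surface were also on the glomerulus side. Of the cytoskeletal list, 9 of its 15 members were higher in the glomerulus, 0 were higher in DTL1 and 6 were not called. Synaptopodin (Synpo), an actin organiser of foot processes, was at 1554, 1543 and 2004 TPM in the glomerulus mice and 46.5, 45.2 and 41.9 TPM in the DTL1 mice. The chloride channel family protein Clic5, which sits with ezrin beneath the podocyte membrane, was at 465, 528 and 585 TPM in the glomerulus mice and 2.39, 0.775 and 3.13 TPM in the DTL1 mice, whereas ezrin itself (Ezr) was at 405, 483 and 465 TPM in the glomerulus mice and 368, 314 and 243 TPM in the DTL1 mice and was not called. The intermediate filament protein vimentin (Vim) stood at 660, 592 and 664 TPM against 13.4, 15.8 and 2.42 TPM, high in every glomerulus mouse.

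Of the podocyte surface and secreted list, 15 of its 17 members were higher in the glomerulus. Podocalyxin (Podxl), the sialoprotein that coats podocytes and also endothelium, was at 2058, 2165 and 2948 TPM in the glomerulus mice and 24, 43 and 25.7 TPM in the DTL1 mice, and the tyrosine phosphatase Ptpro at 586, 671 and 903 TPM in the glomerulus mice and 2.14, 1.82 and 2.6 TPM in the DTL1 mice. The cell cycle inhibitor Cdkn1c, kept on in mature podocytes, reached 3158, 2550 and 3538 TPM against 32.3, 40.4 and 16.1 TPM. Both of the best known antigens of membranous nephropathy were called higher in the glomerulus, Thsd7a at 277, 279 and 357 TPM in the glomerulus mice and 4.57, 4.67 and 7.25 TPM in the DTL1 mice and Pla2r1 at 64, 64 and 72 TPM in the glomerulus mice and 13.9, 13 and 29.4 TPM in the DTL1 mice. The Pla2r1 call was lost with a pseudocount of 0.1 (adjusted p = 0.0714). The 2 members not called were nephronectin (Npnt), a basement membrane ligand of integrin alpha8, at 784, 758 and 912 TPM in the glomerulus mice and 1192, 1332 and 503 TPM in the DTL1 mice, and the peptidase neprilysin (Mme), at 109, 150 and 123 TPM in the glomerulus mice and 129, 97.7 and 67.8 TPM in the DTL1 mice. Mice of the groups overlapped for Mme and Npnt.

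Transcription factors of the podocyte went both ways: 6 of 11 on the list were higher in the glomerulus and 2 in DTL1, the latter a share near the background of 15.1%. The DTL1 count was 1 without DTL1 mouse 1, with a pseudocount of 0.1 or 5 and with these 6 mice alone in the fit. Wt1, required for podocyte differentiation, was at 153, 178 and 193 TPM in the glomerulus mice and 4.11, 4.54 and 1.63 TPM in the DTL1 mice. Lmx1b, Tcf21, Foxd1 and Foxc2 were also higher in the glomerulus. The paired forkhead genes went opposite ways: Foxc2 was at 132, 131 and 141 TPM in the glomerulus mice and 0.41, 1.67 and 0.33 TPM in the DTL1 mice, a difference of 6.41 ± 0.24 (SE, adjusted p = 5.79e-26), and Foxc1 at 34.2, 40.1 and 39 TPM in the glomerulus mice and 156, 140 and 87.1 TPM in the DTL1 mice, a difference of -1.69 ± 0.19 (SE, adjusted p = 4.30e-10). Foxc2 was low in each DTL1 mouse, and Foxc1 was higher in each DTL1 mouse than in any glomerulus mouse. The glucocorticoid receptor Nr3c1 was near equal, at 92.5, 97.9 and 107 TPM in the glomerulus mice and 120, 104 and 97.2 TPM in the DTL1 mice.

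Each tested member of the mesangial and juxtaglomerular list, that is 21 of its 21 members, was higher in the glomerulus, with a median log2 difference of 4.67. Renin (Ren1), secreted by juxtaglomerular cells of the afferent arteriole, was at 926, 1189 and 1712 TPM in the glomerulus mice and 0, 0.515 and 0 TPM in the DTL1 mice. Its glomerulus values differed between mice, with mouse 3 highest. The mesangial receptors Pdgfrb and Itga8 were at 277, 238 and 331 TPM and 339, 349 and 433 TPM in the glomerulus, against 1.7, 3.52 and 1.48 TPM and 12.1, 28.4 and 14.4 TPM in DTL1. The contractile proteins Acta2 and Des, and the gap junction subunits Gja5 and Gja4 of renin-bearing and endothelial cells, were likewise separated without overlap. Angiotensin II acts on the receptor Agtr1a, which was at 393, 400 and 394 TPM in the glomerulus mice and 4.14, 2.48 and 4.56 TPM in the DTL1 mice.

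Of the thin limb list, 12 of 15 members at 10 TPM or more were higher in DTL1 and none (0) in the glomerulus, with a median log2 difference of -3.26. Over all 21 members tested these counts were 12 and 1, with a median of -2.24. Slc14a2 differed by -12.63 ± 0.38 (SE, adjusted p = 2.94e-29), with DTL1 mouse 5 the lowest of the DTL1 mice. Corin, the protease that activates atrial natriuretic peptide, was at 1.8, 2.15 and 1.2 TPM in the glomerulus mice and 1127, 1057 and 464 TPM in the DTL1 mice, and the serotonin receptor Htr4 at 0.4, 0.5 and 0.3 TPM in the glomerulus mice and 85.3, 83.2 and 53.3 TPM in the DTL1 mice. DTL2 held 4.63 ± 3.15 TPM of Slc14a2, 0.633 ± 0.363 TPM of Corin and 0.164 ± 0.105 TPM of Htr4 (SD, n = 3). In the tests against DTL2, which use the same DTL1 mice, all 3 were called higher in DTL1. The small heat shock protein alphaB-crystallin (Cryab) had the highest DTL1 mean of the list, 7799 TPM against 7555 TPM for Slc14a2, and was at 791, 775 and 831 TPM in the glomerulus mice and 9869, 6953 and 6576 TPM in the DTL1 mice.

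Against DTL2, in a test that uses the same DTL1 mice, 8 of the 15 thin limb list members at 10 TPM or more were higher in DTL1 and 5 lower, with a median log2 difference, DTL1 minus DTL2, of 1.41. Of all genes at 10 TPM or more, 20.8% were higher in DTL1 in that test and 5.08% lower. Among the members lower in DTL1, the water channel Aqp1 of long descending limbs was at 227, 16.5 and 48.6 TPM in DTL1, against 6582 ± 465 TPM in DTL2 (SD, n = 3). Osteopontin (Spp1) was at 1870, 937 and 1374 TPM, against 26303 ± 4592 TPM in DTL2. UT-B (Slc14a1), the urea transporter of red cells and descending vasa recta endothelium, was near 0 in both groups at 0.533 TPM in the glomerulus and 0.835 TPM in DTL1. Aqp1 varied between DTL1 mice, with mouse 1 far above mouse 3, and its difference from the glomerulus was not called when these mice alone were fitted (adjusted p = 0.204).

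Epithelial transcripts lay mostly on the DTL1 side. Of the epithelial identity list, 25 of 28 members were higher in DTL1 and 1 in the glomerulus, with a median log2 difference of -4.35. The adhesion molecule Epcam was at 1.65, 0.55 and 2.5 TPM in the glomerulus mice and 996, 1053 and 738 TPM in the DTL1 mice. The protease inhibitor Spint1, which restrains epithelial surface proteases, was at 1.5, 0.45 and 1.2 TPM in the glomerulus mice and 352, 360 and 383 TPM in the DTL1 mice, and kidney cadherin (Cdh16) at 26.1, 30.9 and 24.1 TPM in the glomerulus mice and 1234, 1159 and 876 TPM in the DTL1 mice. The exception was Cd24a, a surface glycoprotein, at 506, 422 and 414 TPM in the glomerulus mice and 178, 216 and 152 TPM in the DTL1 mice. Among the keratins of simple epithelia, Krt8, Krt18 and Krt19 were higher in DTL1, with Krt18 at 0.45, 0.25 and 1.2 TPM in the glomerulus mice and 141, 254 and 248 TPM in the DTL1 mice, while Krt7 was at 152, 133 and 153 TPM in the glomerulus mice and 90.4, 92.2 and 52.8 TPM in the DTL1 mice. Every glomerulus mouse lay above every DTL1 mouse for Krt7, but its difference of 0.92 was under the size asked for. It was called at 1.05 without DTL1 mouse 1, at 1.06 without DTL1 mouse 3 and at 1.02 after quantile normalization. With Krt7 called, the glomerulus count of the list was 2 without either mouse. The tight junction protein Marveld2 was not called either.

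Claudins set the permeability of tight junctions. Of 12 claudins at 10 TPM or more, 8 were higher in DTL1 and 2 in the glomerulus, the latter a share near the background of 13.1%. Over all 20 claudins tested these counts were 8 and 2, with a median log2 difference of -0.36. With these 6 mice alone in the fit, Cldn1 (1.94, adjusted p = 0.102) was lost on the glomerulus side, which left 1, and Cldn6 (-2.64, adjusted p = 0.0679) on the DTL1 side. Cldn5, also a member of the pan-endothelial list, was at 592, 541 and 593 TPM in the glomerulus mice and 1.86, 7.38 and 10.7 TPM in the DTL1 mice. Which glomerular cells held it cannot be told from whole pieces. Cldn8, a barrier claudin of the distal nephron, was at 2.8, 2 and 1.35 TPM in the glomerulus mice and 925, 1351 and 807 TPM in the DTL1 mice, and Cldn7 at 0.4, 1.6 and 2.05 TPM in the glomerulus mice and 291, 245 and 281 TPM in the DTL1 mice. Cldn3, Cldn4 and Cldn19 did not exceed 1.15 TPM in a glomerulus mouse and were at 28.6 TPM or more in each DTL1 mouse. The cation pore Cldn2 of leaky epithelia was called higher in DTL1 at 30.7, 18.7 and 25.4 TPM, a level well under the 539 ± 74.1 TPM of DTL2 (SD, n = 3).

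Regulators of tubule identity followed the epithelial genes. Of the nephron transcription factor list, 17 of 20 members were higher in DTL1 and 1 in the glomerulus. Pax8, a paired-box factor of the nephron lineage, was at 24.8, 35.6 and 25.1 TPM in the glomerulus mice and 837, 725 and 522 TPM in the DTL1 mice, a difference of -4.55 ± 0.23 (SE, adjusted p = 2.60e-21). The Iroquois genes Irx1, Irx2, Irx3 and Irx5, the bHLH genes Sim1 and Sim2, and Pou3f3 and Emx2 were each higher in all DTL1 mice than in all glomerulus mice. Mecom was the member higher in the glomerulus, at 117, 72.5 and 104 TPM in the glomerulus mice and 18.7, 20.9 and 16 TPM in the DTL1 mice.

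Promoters of genes on either side were searched for short strings in the RefSeq windows of GRCm38.p6, which run from 250 bases before to 50 after the start, on both strands. The forkhead string GTAAACA is shown in capitals in the 120 bases before the start of Apela and Acsm3, which are among the 15 genes furthest toward DTL1 and hold it. The stretches were Apela at chr8:65037337-65037456 on the minus strand and Acsm3 at chr7:119760803-119760922 on the plus strand.
Apela: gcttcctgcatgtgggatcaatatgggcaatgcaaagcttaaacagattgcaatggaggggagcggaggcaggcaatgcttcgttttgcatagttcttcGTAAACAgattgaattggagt
Acsm3: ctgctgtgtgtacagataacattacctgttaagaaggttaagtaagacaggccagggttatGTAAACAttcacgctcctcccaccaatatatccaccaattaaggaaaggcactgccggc
The string began 21 bases before the start in Apela and 59 bases before it in Acsm3. Of genes at 10 TPM or more that were called and at least 3 log2 units higher in DTL1, 19 of 300 with a window (6.33%) held GTAAACA, against 6 of 280 (2.14%) of those higher in the glomerulus by as much. The share was 2.51% of 8880 genes at 10 TPM or more and 3.55% of all 27025 promoters. Among all called genes at 10 TPM or more it was 38 of 1156 (3.29%) for DTL1 and 23 of 1209 (1.9%) for the glomerulus, so the DTL1 share was then below that of all promoters. In the sets at least 3 log2 units apart, the ETS string AGGAAGT was held by 9.67% of the DTL1 genes and 9.64% of the glomerulus genes, against 8.74% of genes at 10 TPM or more and 9.57% of all promoters. The E-box CAGCTG was held by 17%, 22.5%, 14.5% and 16.1% in the same order, and the GC box GGGCGG by 50.7%, 55.7%, 65.1% and 35.9%. Among all called genes the DTL1 and glomerulus shares were 7.27% and 9.84% for ETS, 17.8% and 18.4% for the E-box and 58.2% and 63.5% for the GC box. The GC box share of each of these sets of genes was thus above that of all promoters and below that of genes at 10 TPM or more. Strings were chosen after the gene values were known, no test was made, and a match is a description of letters in the window.

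Endothelial transcripts were present in both groups but in different combinations. Of the pan-endothelial list, 14 of its 22 members were higher in the glomerulus, 1 was higher in DTL1 and 7 were not called. The summed TPM of the list was 9802, 10112 and 10989 in the glomerulus mice and 4334, 5953 and 4687 in the DTL1 mice, a separation without overlap (exact permutation test, two-sided, p = 0.1, the smallest that 3 against 3 mice allow). The member higher in DTL1 was Plvap, which forms the diaphragms of fenestrated and sinusoidal capillaries and is little used by mature glomerular endothelium. Plvap was at 249, 260 and 304 TPM in the glomerulus mice and 2015, 2871 and 2017 TPM in the DTL1 mice, 8.49-fold higher in the DTL1 mean and a difference of -3.06 ± 0.59 (SE, adjusted p = 5.55e-05). Every DTL1 mouse lay above every glomerulus mouse. Plvap made up a large part of the DTL1 sum of the list, and Podxl, which also coats podocytes, adds to the glomerulus sum. The sum is therefore not a measure of endothelial content alone. In bulk tissue, fewer cells of a type and less RNA per cell cannot be told apart.

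The vascular endothelial growth factor receptor Kdr went the other way, at 539, 632 and 748 TPM in the glomerulus mice and 19.6, 28.6 and 15.3 TPM in the DTL1 mice, a difference of 4.90 ± 0.46 (SE, adjusted p = 4.62e-12). The angiopoietin receptor Tek was at 269, 272 and 264 TPM in the glomerulus mice and 162, 233 and 187 TPM in the DTL1 mice and was not called, with a difference of 0.50 ± 0.41 (SE, adjusted p = 0.369). Flt1, the other growth factor receptor of that family, was at 92, 120 and 97.6 TPM in the glomerulus mice and 55.9, 101 and 64.2 TPM in the DTL1 mice, with overlapping mice, and the factor Erg at 26.1, 25.9 and 19 TPM in the glomerulus mice and 24.3, 22.2 and 31.6 TPM in the DTL1 mice. The 6 endothelial genes Tek, Tie1, Flt1, Esam, Erg and Robo4 had fitted differences of at most 0.73 in size and were not called, while Plvap and Kdr differed in opposite directions. Endomucin (Emcn) and Pecam1 were called higher in the glomerulus, at 1.54 ± 0.56 and 1.11 ± 0.41 (SE). Emcn lost the call without any 1 of the 6 mice and Pecam1 without any 1 but DTL1 mouse 3, with Emcn at 1.61 (adjusted p = 0.058) and Pecam1 at 1.03 (adjusted p = 0.102) without DTL1 mouse 5.

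**Figure D3:**
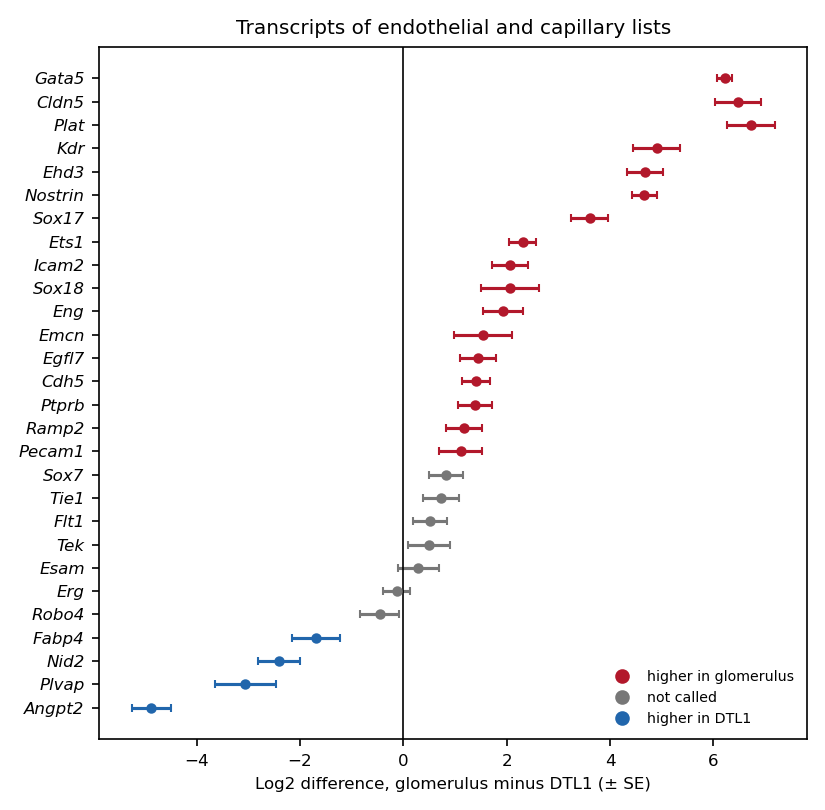
Log2 difference, glomerulus minus DTL1, with its standard error for 28 chosen transcripts, coloured by call. Nid2 comes from the laminin and nidogen list and Angpt2 from the ligand list, the others from the pan-endothelial and glomerular capillary lists. Not all members of these lists are shown, so the balance of points is not that of a list. Gata5, Cldn5 and Plat lie above 6, Tek and Erg near 0, and Plvap and Angpt2 at -3.06 and -4.88.

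Of the glomerular capillary list, 11 of its 13 members were higher in the glomerulus, with a median log2 difference of 4.66. The endocytic protein Ehd3 was at 1648, 1698 and 1955 TPM in the glomerulus mice and 55.1, 86.3 and 69 TPM in the DTL1 mice, and tissue plasminogen activator (Plat) at 4863, 6702 and 4730 TPM in the glomerulus mice and 43.2, 54.9 and 52.3 TPM in the DTL1 mice. The factor Gata5, known from glomerular endothelium, was at 79, 110 and 109 TPM in the glomerulus mice and 0.48, 0.61 and 0 TPM in the DTL1 mice. Fabp4, a fatty acid binding protein of capillaries, was the member higher in DTL1, at 109, 170 and 119 TPM in the glomerulus mice and 483, 289 and 547 TPM in the DTL1 mice. The ranges of the groups did not overlap for any of these 4 genes.

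Of the list of fenestrated and venous capillaries, 3 of 7 members were higher in the glomerulus, Plvap was the 1 higher in DTL1, a share near the 15.1% of all genes at 10 TPM or more, and 3 were not called. The lipase anchor Gpihbp1 was at 150, 181 and 180 TPM in the glomerulus mice and 6.32, 5.55 and 40.6 TPM in the DTL1 mice, and the matrix protein Igfbp7, abundant in capillaries, at 9132, 10037 and 10207 TPM in the glomerulus mice and 2973, 3575 and 2500 TPM in the DTL1 mice. The venous factor Nr2f2 overlapped, at 44.8, 58.3 and 52.9 TPM in the glomerulus mice and 49.8, 105 and 60.4 TPM in the DTL1 mice. Of the list for descending vasa recta and arteries, 6 of its 12 members were higher in the glomerulus and 3 in DTL1. The arterial genes Efnb2 and Sox17 were higher in every glomerulus mouse, Efnb2 at 112, 135 and 159 TPM in the glomerulus mice and 3.45, 4.53 and 6.63 TPM in the DTL1 mice. The members higher in DTL1 were Aqp1, Cryab and the actin-severing protein Scin, the last at 3.85, 4.05 and 3.95 TPM in the glomerulus mice and 180, 255 and 231 TPM in the DTL1 mice. Cryab and Aqp1 are used by thin limb epithelium as well, so vessel and epithelium cannot be told apart by them.

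The DTL1 levels of these genes were set beside those of other tubules, in contrasts that share the DTL1 mice. Of the pan-endothelial list, 21 of 22 members were higher in DTL1 than in the medullary thick ascending limb (MTAL), against 45.6% of all genes at 10 TPM or more, and 0 were lower, against 5.48%. Against DTL2 8 were higher in DTL1, against 20.8% of all such genes, and 0 were lower, against 5.08%. Plvap was at 1011 ± 373 TPM in DTL2 and 167 ± 67.4 TPM in MTAL (SD, n = 3). DTL1 exceeded MTAL by 3.89 ± 0.59 (SE, adjusted p = 2.17e-07), while its difference from DTL2 of 1.22 ± 0.59 (SE, adjusted p = 0.0826) did not pass.

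Vascular ligands differed in both directions. Of the ligand list, 13 of its 23 members were higher in the glomerulus and 4 in DTL1, the latter a share near the background of 15.1%. Vegfa, made by podocytes for the capillaries beside them, was at 905, 977 and 1114 TPM in the glomerulus mice and 25.1, 17.9 and 19.1 TPM in the DTL1 mice, a difference of 5.54 ± 0.18 (SE, adjusted p = 4.30e-28). Angpt2, the context-dependent ligand of Tek, was at 71, 77.8 and 67 TPM in the glomerulus mice and 2232, 2782 and 1598 TPM in the DTL1 mice, a difference of -4.88 ± 0.38 (SE, adjusted p = 1.38e-14). Both were separated without overlap, and the DTL2 mean lay between for each, with Vegfa at 151 ± 17.1 TPM and Angpt2 at 509 ± 173 TPM (SD, n = 3). DTL1 was higher than DTL2 in Angpt2 by 2.15 ± 0.38 (SE, adjusted p = 1.55e-05), on a scale where positive is higher in DTL1.

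The platelet-derived factors differed in both directions: Pdgfb, the endothelial signal that recruits mesangial cells, was at 65, 64 and 82 TPM in the glomerulus mice and 3.27, 7.17 and 10.9 TPM in the DTL1 mice, and Pdgfa, made by epithelia, at 29.3, 31.1 and 42.3 TPM in the glomerulus mice and 97, 133 and 87.2 TPM in the DTL1 mice. Of the Notch ligands, Dll4 was at 65.2, 77.8 and 87 TPM in the glomerulus mice and 14.1, 12 and 9.81 TPM in the DTL1 mice and Jag1 at 7.55, 9.3 and 13.5 TPM in the glomerulus mice and 227, 122 and 105 TPM in the DTL1 mice. Semaphorins Sema3g and Sema3e were higher in the glomerulus, Sema3g at 349, 396 and 449 TPM in the glomerulus mice and 0.17, 0.965 and 1.88 TPM in the DTL1 mice. Pdgfb, Dll4, Sema3g and Sema3e were higher in every glomerulus mouse than in any DTL1 mouse, and Pdgfa and Jag1 the reverse. The semaphorin Sema3c went the other way and was called higher in DTL1. Its call was lost with only glomerulus and DTL1 mice in the fit (-1.63, adjusted p = 0.0589).

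Of the vascular receptor list, 13 of its 25 members were higher in the glomerulus, 1 was higher in DTL1 and 11 were not called. The semaphorin and growth factor coreceptor Nrp1 was at 1241, 1368 and 1513 TPM in the glomerulus mice and 76.1, 92.4 and 79.9 TPM in the DTL1 mice. The member higher in DTL1 was the endothelin receptor Ednrb, at 80.8, 86.2 and 73.8 TPM in the glomerulus mice and 266, 202 and 196 TPM in the DTL1 mice, while Ednra of contractile cells was at 20.6, 19.6 and 19.4 TPM in the glomerulus mice and 3.3, 3.92 and 4.95 TPM in the DTL1 mice. The difference was -1.47 ± 0.38 (SE, adjusted p = 0.00213) for Ednrb and 2.09 ± 0.40 (SE, adjusted p = 5.78e-05) for Ednra. The groups did not overlap for either receptor.

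The parietal epithelium lines the capsule around the tuft, and many of its markers are known from tubules too. Of its list, 4 of 13 members were higher in the glomerulus and 7 in DTL1. The 4 were Cldn1, Cd24a, Dkk3 and Ncam1. The glomerulus count was 2 with a pseudocount of 0.1, without Ncam1 (1.35, adjusted p = 0.271) and Dkk3 (2.09, adjusted p = 0.0877). It was also 2 with these 6 mice alone in the fit, without Cldn1 (1.94, adjusted p = 0.102) and Dkk3 (1.91, adjusted p = 0.0761). Pax2 was at 0.5, 0.55 and 0.55 TPM in the glomerulus mice and 32.2, 19.7 and 15.7 TPM in the DTL1 mice, and the stem cell antigen Prom1 at 8.75, 8.45 and 5.5 TPM in the glomerulus mice and 164, 132 and 48.9 TPM in the DTL1 mice. The adhesion molecule Vcam1 overlapped, at 25.5, 56.4 and 41.6 TPM in the glomerulus mice and 36.8, 41.1 and 30.7 TPM in the DTL1 mice.

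Collagen IV and laminins are the networks of basement membranes. All 5 collagen IV chains at 10 TPM or more were higher in the glomerulus. The chain Col4a3 of the mature filtration barrier was at 315, 356 and 401 TPM in the glomerulus mice and 24.4, 24.9 and 14.3 TPM in the DTL1 mice, and Col4a1 of most basement membranes at 237, 278 and 464 TPM in the glomerulus mice and 104, 141 and 111 TPM in the DTL1 mice. Without glomerulus mouse 3 the Col4a1 difference fell from 1.41 to 1.13 and was not called (adjusted p = 0.0692), and with these 6 mice alone in the fit Col4a5 was not (adjusted p = 0.0859). Of the list of laminins, nidogens and proteoglycans, 2 of 13 members were higher in the glomerulus and 4 in DTL1, beside 13.1% and 15.1% of all genes at 10 TPM or more, so the glomerulus count is near the background. The laminin beta chains differed in opposite directions: Lamb2, the beta chain of the mature glomerular membrane, was at 315, 334 and 474 TPM in the glomerulus mice and 86.4, 71.9 and 95.6 TPM in the DTL1 mice, and Lamb1 at 50.6, 42.9 and 53.3 TPM in the glomerulus mice and 145, 219 and 117 TPM in the DTL1 mice. The nidogens, which join laminin to collagen IV, did so too, with Nid1 at 199, 222 and 253 TPM in the glomerulus mice and 102, 62.5 and 78.3 TPM in the DTL1 mice and Nid2 at 50.4, 67.2 and 81.3 TPM in the glomerulus mice and 319, 437 and 309 TPM in the DTL1 mice. The Nid1 call was lost with a pseudocount of 0.1 (adjusted p = 0.076), which left 1 member of the list higher in the glomerulus. Agrin (Agrn) and Col18a1, heparan sulfate bearing components, differed by -0.06 and 0.03 and overlapped between groups.

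Of the matrix receptor list, 9 of its 18 members were higher in the glomerulus and 3 in DTL1, the latter a share near the 15.1% of all genes at 10 TPM or more. With these 6 mice alone in the fit the DTL1 count was 1, without Itgb4 (adjusted p = 0.286) and Itgb6 (adjusted p = 0.0554). Integrin beta1 (Itgb1), partner of the laminin receptor of foot processes, was at 932, 1024 and 1088 TPM in the glomerulus mice and 295, 314 and 273 TPM in the DTL1 mice, and beta5 (Itgb5) at 938, 1033 and 1168 TPM in the glomerulus mice and 103, 114 and 99.1 TPM in the DTL1 mice. The collagen receptor Ddr1 was at 65.2, 69 and 94.3 TPM in the glomerulus mice and 202, 223 and 227 TPM in the DTL1 mice, higher in every DTL1 mouse. Dystroglycan (Dag1) overlapped, at 559, 662 and 870 TPM in the glomerulus mice and 776, 706 and 486 TPM in the DTL1 mice.

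Natriuretic peptide receptors differed in both directions. Npr1, the receptor of atrial natriuretic peptide, and Npr3, its clearance receptor, were higher in the glomerulus, Npr1 at 58.5, 75.2 and 90.7 TPM in the glomerulus mice and 20.6, 23.4 and 14.2 TPM in the DTL1 mice and Npr3 at 71, 65.4 and 81.8 TPM in the glomerulus mice and 1.27, 4.03 and 0.45 TPM in the DTL1 mice. Npr2, the receptor of C-type peptide, was at 25.2, 34 and 35.7 TPM in the glomerulus mice and 173, 130 and 88 TPM in the DTL1 mice, and Corin was the DTL1 gene described above. The parathyroid hormone receptor Pth1r was at 1047, 1074 and 1144 TPM in the glomerulus mice and 34.6, 15.2 and 28.4 TPM in the DTL1 mice. Of the whole signalling list, 7 of 15 members at 10 TPM or more were higher in the glomerulus and 5 in DTL1, beside 13.1% and 15.1% of all such genes. Over all 32 members tested the counts were 11 and 8.

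The Wnt ligands Wnt4, Wnt5a, Wnt7b and Wnt11, all those of the list at 10 TPM or more, were higher in DTL1. Wnt7b was at 2.6, 1.1 and 0.9 TPM in the glomerulus mice and 231, 149 and 77 TPM in the DTL1 mice. Wnt11 was at 2, 0.5 and 1.6 TPM in the glomerulus mice and 188, 635 and 74.7 TPM in the DTL1 mice, with mouse 3 the highest DTL1 mouse and mouse 5 the lowest. The inhibitors Dkk2, Wif1 and Sfrp2 were higher in the glomerulus, with Dkk2 at 309, 291 and 312 TPM in the glomerulus mice and 2, 4.33 and 1.38 TPM in the DTL1 mice and Wif1 at 128, 137 and 120 TPM in the glomerulus mice and 0.12, 0.9 and 0 TPM in the DTL1 mice. Sfrp2 was at 1067, 724 and 1204 TPM in the glomerulus mice and 5.72, 4.27 and 2.81 TPM in the DTL1 mice. The frizzled-related inhibitors Frzb and Sfrp1 were higher in DTL1, although Sfrp1 fell just under the size asked for with a pseudocount of 5, at -0.99. Of the whole list, 4 of 12 members were higher in the glomerulus and 7 in DTL1, and over the 23 members tested 6 and 8.

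Transcripts of neighbouring tubules were found in DTL1, and some tubule transcripts were higher in the glomerulus. Of the proximal straight tubule list, 11 of 14 members at 10 TPM or more were higher in DTL1 and 3 in the glomerulus. The latter included Cyp4b1 and Slc34a1. The Slc34a1 call was lost with a pseudocount of 0.1 (2.64, adjusted p = 0.0686), without glomerulus mouse 1 (2.11, adjusted p = 0.0582) and without DTL1 mouse 5 (2.25, adjusted p = 0.0515). The androgen-regulated protein Kap was at 17.3, 2 and 2.7 TPM in the glomerulus mice and 4198, 1030 and 2266 TPM in the DTL1 mice, a difference of -8.88 ± 1.02 (SE, adjusted p = 1.29e-09). PTS3, the end of the proximal tubule that leads into the thin limb, held a mean of 75375 TPM of Kap, so DTL1 mice 1, 3 and 5 stood at 5.57%, 1.37% and 3.01% of it. Relative to PTS3, the steroid dehydrogenase Akr1c18 stood at 21.7%, 11.2% and 28.4%, and the organic anion transporter Slc22a7 at 1.43%, 0.398% and 3.4%. The DTL1 mean ranged from 0.103% to 61.4% of PTS3 over 13 genes at 100 TPM or more there, with a median of 5.02%. The ends of that range were Serpina1d and Cyp4b1, and the other genes spanned 1.74% to 20.4%. Mouse 3 was the lowest of the DTL1 mice for each of them except Serpina1d and Cyp4b1. Akr1c and Serpina1 genes have close copies between which reads can be split.

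**Figure D4:**
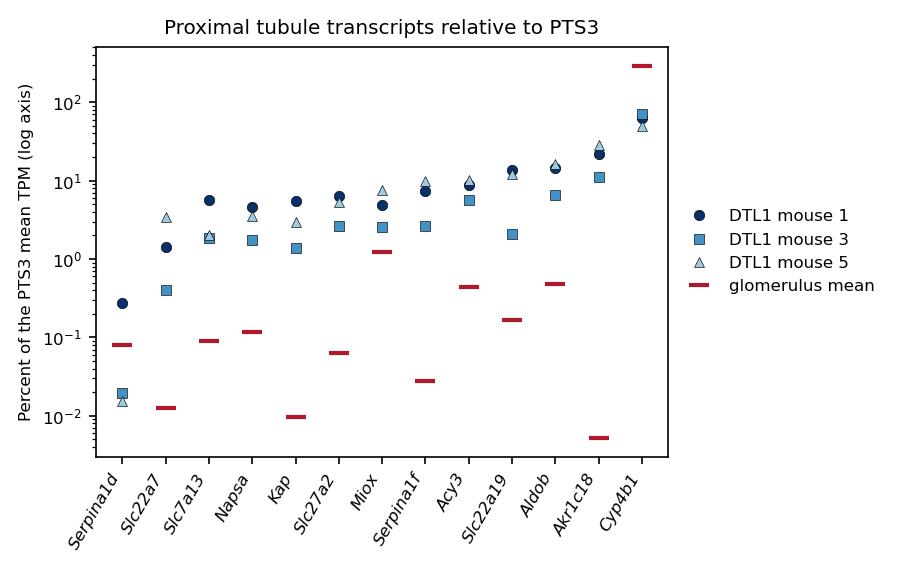
Level in each of 3 DTL1 mice and in the glomerulus mean as a percent of the PTS3 mean (log axis) for 13 proximal transcripts at 100 TPM or more in PTS3. Akr1c18 lies above 10% in each DTL1 mouse and Kap at 5.57% or less, while Cyp4b1 is higher in the glomerulus than in PTS3.

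The cytochrome Cyp4b1 was the proximal list member most abundant in the glomerulus, at 968, 937 and 916 TPM in the glomerulus mice and 205, 230 and 158 TPM in the DTL1 mice. Uromodulin (Umod) of the thick limb was at 0.85, 0.2 and 0.2 TPM in the glomerulus mice and 393, 295 and 73 TPM in the DTL1 mice, against 21235 ± 3353 TPM in MTAL (SD, n = 3). Epidermal growth factor (Egf) of the distal nephron was at 170, 143 and 174 TPM in the glomerulus mice and 12.4, 16.3 and 11.3 TPM in the DTL1 mice, so these thick limb genes differed in opposite directions. The water channel Aqp2 of the collecting duct was at 2.25, 1.8 and 1.4 TPM in the glomerulus mice and 5.19, 23.1 and 58.7 TPM in the DTL1 mice, a call that was lost when these mice alone were fitted (adjusted p = 0.0825). Slc12a1, the cotransporter that defines the thick limb, was not called, at means of 0.433 TPM in the glomerulus and 4.22 TPM in DTL1. Of the thick limb and collecting duct list, 3 of 4 members at 10 TPM or more were higher in DTL1 and 1 in the glomerulus. The DTL1 count was 1 with these 6 mice alone in the fit. Over all 14 members tested 4 were higher in DTL1 and 1 in the glomerulus, beside 11.3% and 7.00% of all genes tested. Of the transport list, 10 of 14 members were higher in DTL1 and 3 in the glomerulus, beside 15.1% and 13.1% of all genes at 10 TPM or more. Over all 28 members tested the counts were 11 and 3, with a median log2 difference of -0.54, against -2.40 at 10 TPM or more. With these 6 mice alone in the fit 6 of the former were higher in DTL1. The sodium pump's beta subunit Atp1b1 was at 8.85, 16.9 and 10.1 TPM in the glomerulus mice and 762, 601 and 521 TPM in the DTL1 mice. The part that neighbouring tubules had in these results was not tested.

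Blood and immune transcripts were mostly on the glomerulus side. Of the leukocyte list, 10 of its 16 members were higher in the glomerulus and 1 in DTL1. Without DTL1 mouse 5 the glomerulus count was 7. Lysozyme (Lyz2) was at 318, 325 and 422 TPM in the glomerulus mice and 0.81, 15.3 and 7.78 TPM in the DTL1 mice. The neutrophil protein S100a8 was at 26.9, 140 and 71.9 TPM in the glomerulus and listed at 0 in each DTL1 mouse. The macrophage receptor Csf1r went the other way, at 13.9, 18.2 and 21.5 TPM in the glomerulus mice and 86.9, 115 and 64.8 TPM in the DTL1 mice. The pan-leukocyte antigen Ptprc overlapped, at 27.9, 25.9 and 21.1 TPM in the glomerulus mice and 11.3, 9.77 and 21.9 TPM in the DTL1 mice, and was called only after quantile normalization, at 1.25 (adjusted p = 0.0155). Beta-globin Hbb-bs was at 119, 216 and 300 TPM in the glomerulus and listed at 0 in each DTL1 mouse. The summed TPM of the 8 erythroid members was 197, 399 and 557 in the glomerulus mice and 6.22, 7.83 and 14.7 in the DTL1 mice. Of these 8, all tested, 5 were higher in the glomerulus and 1 in DTL1, beside 7.00% and 11.3% of all genes tested. The DTL1 count is thus near the background. At 10 TPM or more 4 of 4 members were higher in the glomerulus. Globin genes have close copies between which reads can be split. Their part in the other differences was not tested.

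Stromal and immediate early transcripts were also counted. Of the fibroblast list, 5 of its 7 members at 10 TPM or more were higher in the glomerulus and 0 in DTL1. Over all 14 members tested 6 were higher in the glomerulus and 1 in DTL1, with a median log2 difference of 0.12. Without DTL1 mouse 5 the DTL1 count at 10 TPM or more was 1: Col3a1, a fibrillar collagen, was at 6, 2.8 and 3.45 TPM in the glomerulus mice and 18.1, 19.6 and 1.81 TPM in the DTL1 mice and was called at -1.97 (adjusted p = 0.0285) without that mouse. Collagen I (Col1a2) was at 153, 155 and 249 TPM in the glomerulus mice and 10.4, 14.8 and 23.4 TPM in the DTL1 mice, whereas decorin (Dcn), a defining fibroblast marker, overlapped at 5.55, 12.8 and 4.1 TPM in the glomerulus mice and 6.06, 14 and 13.7 TPM in the DTL1 mice. Of the early response list, 7 of its 18 members were higher in the glomerulus and 2 in DTL1, beside 13.1% and 15.1% of all genes at 10 TPM or more, so the DTL1 count is no more than the background. Without DTL1 mouse 5 the glomerulus count was 4. Fos, induced by dissociation and handling as well as by signals, was at 284, 450 and 96.9 TPM in the glomerulus mice and 4.12, 3.1 and 4.44 TPM in the DTL1 mice, and Jund, a steadily expressed relative of Jun, at 151, 162 and 190 TPM in the glomerulus mice and 488, 413 and 290 TPM in the DTL1 mice. Early response genes are known to move with handling, whose part in these results was not tested.

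**Figure D5:**
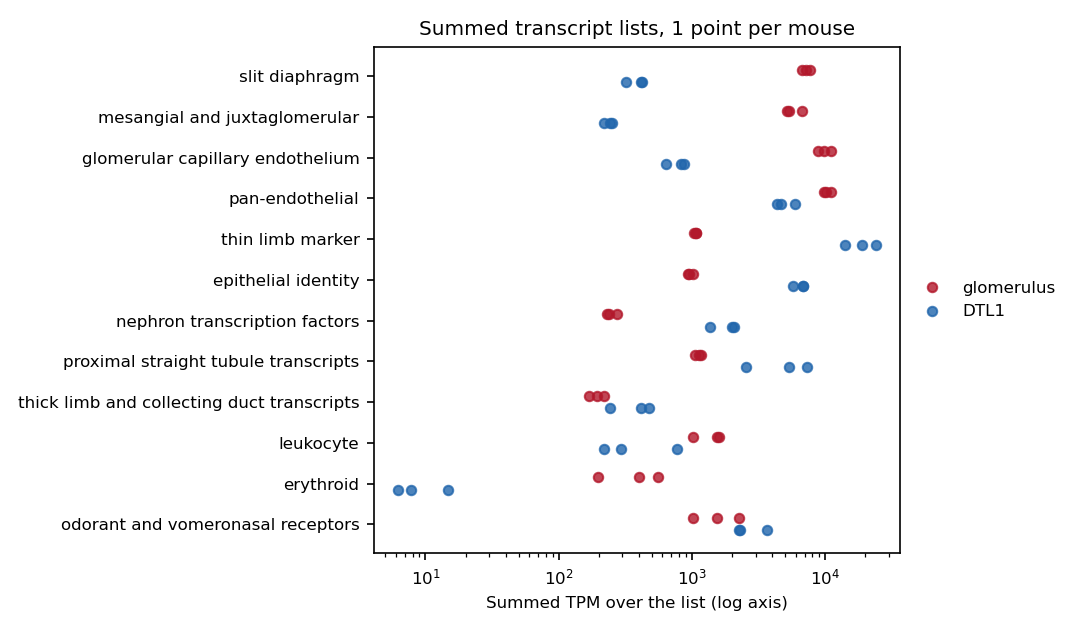
Summed TPM over 12 transcript lists (log axis), 1 point for each of 3 glomerulus and 3 DTL1 mice. The mice of the groups separate on each list shown, most closely for the odorant and vomeronasal receptor genes, where the highest glomerulus mouse is at 2252 and the lowest DTL1 mouse at 2258.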

How the data were processed

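Polyadenylated RNA of microdissected segments was amplified with an ultra-low input kit, per the labels' protocols. The deposited values are TPM per gene, made by the authors with STAR 2.5.4a and RSEM 1.3.0, per the submitters' processing notes. The genome build and annotation are not given in the sources used here. TPM columns all add up to nearly one total (999998.6 to 1000190.3), which hides how deeply a library was read: depth is unknown here and no counting error can be given. Glomerulus columns hold 1 decimal and tubule columns 2.

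Pieces of a mouse number and segment were averaged as log2(TPM + 1). Genes at 1 TPM or more in at least 3 mice were tested with limma 3.58.1 (R 4.3.3) in a fit of all 15 groups with an intensity trend, and p-values were adjusted by the Benjamini-Hochberg method over all 33793 genes. Mouse numbers were treated as counted within segments. The spread behind each SE and p-value was pooled over the mice of all 15 groups, not taken from the glomerulus and DTL1 mice alone. A gene's spread was shared by all groups, although r was 0.762 to 0.889 between DTL1 mice and 0.943 to 0.960 between glomerulus mice. With only glomerulus and DTL1 mice in the fit, 2877 genes were called instead of 6190. A fold change on the log2(TPM + 1) scale understates that of low genes. In a test on simulated data, 172 of 200 genes changed by 2 log2 units were called, with 5 others, among 33793 genes.

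The members, the 31 gene lists (518 of 520 symbols found) and the tests were chosen with earlier results of these data known. Named were list genes at a mean of 10 TPM or more by size and role, defining markers near 0, the 10 least different genes at 200 TPM or more in both groups, and the 15 most different called genes per direction at 10 TPM or more without overlap (passing over predicted, mitochondrial, ribosomal, pseudogene and receptor names). Serpina1d was named after its values were seen. Alternatives changed the pseudocount, filter, scaling, rounding, gene set, fit and mice. Some items are not reported here. Promoters came from the RefSeq table of GRCm38.p6.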

Additional observations from a re-analysis of the deposited data

How the results depend on the processing

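Of 300 called named genes at 10 TPM or more, 249 kept their call in all 19 alternatives and none (0) reversed. None (0) of 252 summed list values changed sign. The count over all genes was 6190. It was 3093 with a pseudocount of 5 and 3962 with only protein-coding genes, of which 17869 were tested. With only the 12671 genes at 10 TPM tested it was 3639. With only these 6 mice in the fit it was 2877, a setting that changes both the number of mice and the spread used. The causes of these changes in count were not tested. Leaving out 1 mouse gave 5167 to 8195 genes, and 3110 to 3994 of those at 10 TPM or more. Quantile normalization moved the median log2 difference from -0.17 to -0.02.

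Only mouse numbers 1 and 3 occur in both groups, and the same-numbered mice deviated with correlations of -0.07 and 0.15. So few values cannot show whether a number marks the same mouse in both groups. With the number as a replicate block, 5631 genes were called, 3418 of them at 10 TPM or more. With unknown depth, a low TPM in either group has no counting interval.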

Other observations

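Decay-accelerating factor (Cd55), which breaks up complement convertases on cell surfaces, was at 248, 292 and 229 TPM in the glomerulus mice and 2.39, 5.21 and 4.38 TPM in the DTL1 mice, and Cd59a, which blocks the membrane attack complex, at 764, 881 and 764 TPM in the glomerulus mice and 156, 191 and 199 TPM in the DTL1 mice. Every glomerulus mouse lay above every DTL1 mouse for both. Of the complement list, 3 of its 9 members at 10 TPM or more were higher in the glomerulus, 2 in DTL1 and 4 were not called, beside 13.1% and 15.1% of all genes at 10 TPM or more. The DTL1 count was 0 without glomerulus mouse 3 or DTL1 mouse 5, and 1 without glomerulus mouse 1 or 2. It was also 0 with these 6 mice alone in the fit, and 1 with a pseudocount of 0.1 or 5, with no filter, after median ratio rescaling and with the replicate block. C3 was at 4.8, 16.1 and 8.6 TPM in the glomerulus mice and 0.06, 1.31 and 50.1 TPM in the DTL1 mice, with DTL1 mouse 5 far above the other DTL1 mice. Without that mouse C3 was called higher in the glomerulus at 2.59 (adjusted p = 5.66e-07), which made the glomerulus count 4.

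Of the osmolyte list, 4 of 12 members were higher in DTL1, 1 in the glomerulus and 7 were not called, where 28.2% of all genes at 10 TPM or more were called in either direction. The list's summed TPM was 1871, 1773 and 2188 in the glomerulus mice and 11745, 8098 and 7722 in the DTL1 mice, most of the latter from Cryab. The other members higher in DTL1 were the inositol transporter Slc5a3, the betaine transporter Slc6a12, at 0.05, 0.3 and 0.65 TPM in the glomerulus mice and 23.8, 27.9 and 0.86 TPM in the DTL1 mice with DTL1 mouse 5 far below the others, and the amino acid transporter Slc38a2. Without DTL1 mouse 1 the DTL1 count was 2, with Slc5a3 at -0.83 (adjusted p = 0.084) and Slc38a2 at -0.81 (adjusted p = 0.149), and Slc38a2 was also lost in several other settings. With these 6 mice alone in the fit, Slc6a12 was at -3.06 (adjusted p = 0.161) and Slc5a3 at -1.28 (adjusted p = 0.101). The taurine transporter Slc6a6 was at 351, 479 and 432 TPM in the glomerulus mice and 836, 531 and 518 TPM in the DTL1 mice and was not called. The member higher in the glomerulus was the phosphodiesterase Gdpd5, which breaks down the osmolyte glycerophosphocholine, at 101, 92.3 and 113 TPM in the glomerulus mice and 21, 20.2 and 27.9 TPM in the DTL1 mice.

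Of the hypoxia and glycolysis list, 2 of 21 members were higher in the glomerulus, 4 in DTL1 and 15 were not called, a share called that is near the 28.2% of all genes at 10 TPM or more. The glomerulus count was 4 without glomerulus mouse 1 or DTL1 mouse 3 and after quantile normalization, and the DTL1 count 2 without DTL1 mouse 1 and 7 without DTL1 mouse 5. Those higher in the glomerulus were the factor Epas1, at 85.4, 93 and 130 TPM in the glomerulus mice and 13.9, 19.7 and 13.6 TPM in the DTL1 mice, and the vasodilator peptide adrenomedullin (Adm) at 132, 176 and 168 TPM in the glomerulus mice and 3.78, 2.16 and 0 TPM in the DTL1 mice. Those higher in DTL1 were the factor Hif1a, at 57.5, 66.3 and 66.3 TPM in the glomerulus mice and 153, 118 and 121 TPM in the DTL1 mice, the glycolytic regulator Pfkfb3, the kinase Pdk1, which holds back pyruvate dehydrogenase, at 8.1, 8.3 and 5.8 TPM in the glomerulus mice and 13.9, 26.7 and 28.9 TPM in the DTL1 mice, and Ankrd37. Hif1a was under the size asked for with a pseudocount of 5 (-0.98), without glomerulus mouse 1 (-0.96) and without DTL1 mouse 1 (-0.91). Pfkfb3 was so without DTL1 mouse 1, at -0.99, and was not called with these 6 mice alone in the fit (adjusted p = 0.102). The glycolytic enzyme Aldoa overlapped, at 1085, 1080 and 1063 TPM in the glomerulus mice and 1233, 1233 and 741 TPM in the DTL1 mice.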
